A study of Homo sapiens with 12 samples.

Results

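The genes described here were close to silent in HCT116 colon cancer cells given no topoisomerase inhibitor, with or without TNFα. These genes gave reads after camptothecin (CPT), an inhibitor of topoisomerase I (TOP1). They were chosen from the deposited read counts themselves. A gene was taken when it had at most 20 reads summed over the 4 libraries without inhibitor and at least 60 reads summed over the 4 CPT libraries. 123 genes met both thresholds, 9 of them were dropped by symbol, and 114 of the 26364 genes in the files remained. The symbols to drop were those of antisense, ZNF, histone, small RNA and microRNA genes, and a list of 7 named early response and cytokine genes. The 7 is the length of that list, not a count among the 9. Because the contrast between CPT and no inhibitor chose these genes, their CPT and no-inhibitor levels are given as a description with no test.

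TOP1 cuts and reseals 1 strand of the DNA ahead of and behind a moving RNA polymerase and so removes the supercoils that transcription creates. CPT traps the enzyme on the cut strand, which blocks long transcripts and damages DNA. ICRF193 inhibits topoisomerase II (TOP2), the enzyme that passes 1 duplex through another, without trapping it in a cut. Most genes of other tissues are packed in inactive chromatin in an epithelial cell line, and a polymerase that fails to stop at the end of a gene can carry transcription into the next one.

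The series holds 12 total RNA libraries of HCT116, an established human colon carcinoma line, with 1 library per condition. WT cells and p65-deficient cells each received no inhibitor, CPT or ICRF193 (5 µM, 2 h), and each was then left without TNFα (0 h) or given 20 ng/mL TNFα for 1 h. The p65-deficient cells are 1 clone, which the labels describe as made with an shRNA against p65 and the study's methods as edited with a guide in the third exon of the gene for p65 (RELA), so clone and genotype cannot be told apart. RELA mRNA was at 694 to 909 normalized counts in the 6 WT libraries and at 548 to 673 in the 6 p65-deficient libraries, so the transcript itself was still made. Reads assigned to genes numbered 8101212 to 22051046 per library, and the 4 shallow libraries (8101212 to 8755001) were all p65-deficient: no inhibitor at 1 h, CPT at 1 h and both ICRF193 libraries. A normalized count below is a read count divided by the library's size factor. Of 8 colon epithelial markers, EPCAM, CDH1, KRT8, KRT18, KRT19 and CDX2 were above 177 normalized counts in every library, while VIL1 and LGALS4, which mark differentiated absorptive cells, reached at most 10.1 in any library.

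The 114 genes together gave 226 to 275 normalized counts in the no-inhibitor libraries and 2401 to 2794 in the CPT libraries. In the ICRF193 libraries, which the choice did not use, they gave 297 to 368, so the summed level with the TOP2 inhibitor was 12.9% of that with CPT. The median gene had 10.5 reads over the 4 no-inhibitor libraries (range 0 to 20), 82.5 reads over the 4 CPT libraries (range 60 to 399) and 9 reads over the 4 ICRF193 libraries (range 0 to 30). All 114 genes had more normalized counts in every CPT library than in any library without inhibitor, against 13.9% of the 21096 genes with a read in the series. The choice on the sums favours this, so nothing is read from it. In bulk RNA, more cells that express a gene and more RNA per cell cannot be told apart. For the 97 genes with more than 3 no-inhibitor reads, the ratio of CPT to no-inhibitor normalized counts ran from 3.12 to 28.0 with a median of 8.56. Even with CPT the genes stayed low: per kilobase of exon, the median was 0.635 RPKM (reads per kilobase of exon, scaled to 1e6 assigned reads) with CPT and 0.0592 without inhibitor, and the highest value with CPT was 4.19.

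**Figure D1:**
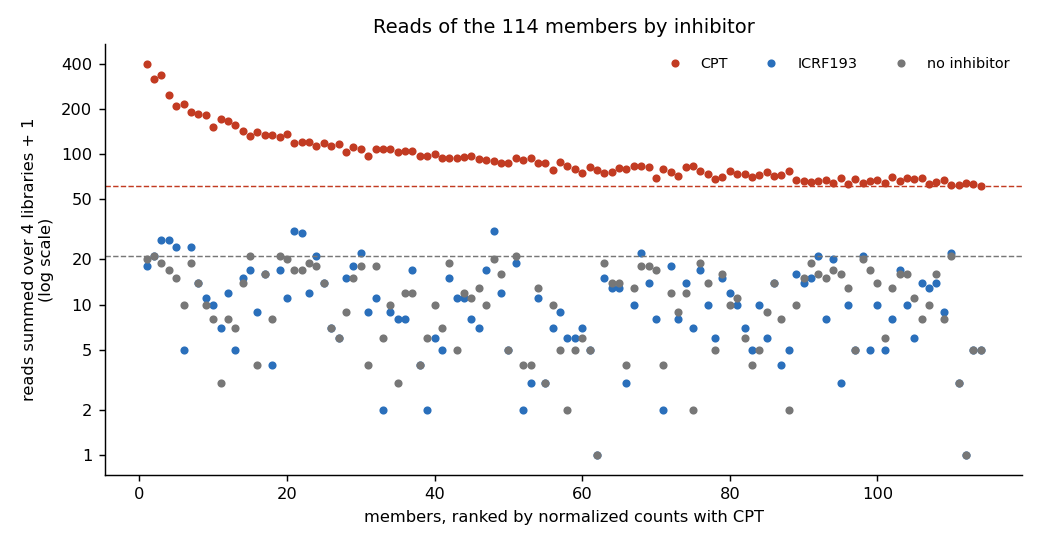
Reads of the 114 genes summed over the 4 libraries of each inhibitor, plus 1, on a log scale, with genes ranked by their normalized counts with CPT. The dashed lines stand at the thresholds of the choice, 20 reads without inhibitor (grey) and 60 reads with CPT (red), each plus 1. The ICRF193 sums (blue) reach at most 30 reads, with none at the CPT threshold. 10 of them lie above 20 reads, the highest no-inhibitor sum.

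No gene of the 114 reached 60 reads over the ICRF193 libraries, and 104 stayed at or under 20. Of the 8961 other near-silent genes, 0 reached 60 and 8923 stayed at or under 20. A low ICRF193 sum was thus common to near-silent genes and not particular to the 114. The ICRF193 libraries held fewer assigned reads than the others (51935202, against 68639924 without inhibitor and 63532086 with CPT). The 3 genes with most ICRF193 reads were ENDOU, an RNA-cutting enzyme, with 30 reads over the 4 libraries, LOC100507634, a transcript beside USP24, also with 30, and PNLDC1, a nuclease that trims the small piRNAs of germ cells, with 29. ENDOU had 9, 15, 5 and 1 ICRF193 reads in the WT 0 h, WT 1 h, p65-deficient 0 h and p65-deficient 1 h libraries, against 34, 36, 26 and 21 with CPT in the same order. Its ICRF193 values were below its CPT values in every library. The no-inhibitor libraries served for the choice, so the small excess of the ICRF193 sum over the no-inhibitor sum is given as a level only. The thresholds applied to ICRF193 in place of CPT found 0 genes.

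Near-silent genes outside the choice also gave more reads with CPT in sum. The 8961 other genes with at most 20 no-inhibitor reads summed to 4069 to 5188 normalized counts without inhibitor, 4409 to 5799 with ICRF193 and 7596 to 9010 with CPT. The groups of 4 libraries did not overlap between CPT and the other conditions. Taking genes low without inhibitor favours a low no-inhibitor sum, so nothing is read from the gap between CPT and no inhibitor. The ICRF193 reads had no part in that choice. Of these 8961 genes, 4199 had a CPT read and 4762 had none. Thus 1.26% of the 9075 near-silent genes met the CPT threshold. In the other direction, 17 genes with at least 60 reads without inhibitor had at most 20 with CPT, among them the bitter taste receptor genes TAS2R19 (75 and 12 reads) and TAS2R30 (69 and 15) and the angiopoietin gene ANGPT2 (83 and 13), which were picked from the 17 after their values were seen.

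At the CPT threshold, ODF3 (4 and 60 reads without and with CPT), HCG26 (2 and 61) and TUBA3D (20 and 61) were just inside, while LYL1 (3 and 59), HIC1 (6 and 59) and VAMP5 (20 and 59) were just outside. At the no-inhibitor threshold, LOC101060553 (20 and 315), NDUFAF4P1 (20 and 131) and C17orf82 (20 and 130) were just inside, while FOXCUT (21 and 198), LOC100270804 (21 and 83) and EFNB3 (21 and 81) were just outside. The genes on both sides of each line had like counts, so membership near a threshold turned on a few reads.

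The gene with most normalized counts was C19orf35, now named PEAK3, a pseudokinase gene at hg19 chr19:2274631-2282181 on the minus strand with 4 exons. It had 4, 4, 8 and 3 reads without inhibitor (WT 0 h, WT 1 h, p65-deficient 0 h, p65-deficient 1 h), 89, 124, 131 and 55 with CPT, and 5, 6, 5 and 1 with ICRF193. Its CPT level was alike in all 4 libraries after normalization, at 73.9 to 102 normalized counts. LOC101060553, an uncharacterized transcript at chr13:111800544-111805924, had 5, 7, 4 and 4 reads without inhibitor in the same order and 106, 109, 62 and 38 with CPT. FAM166A, now CIMIP2A, which encodes a protein of the microtubule doublets of cilia, had the highest level per length and most reads in any 1 library: 133 and 143 in the WT CPT libraries and 44 and 15 in the p65-deficient CPT libraries, against 4, 7, 4 and 3 without inhibitor. SEZ6, a synaptic protein gene of neurons, had 61, 98, 58 and 29 CPT reads against 6, 4, 4 and 2 without inhibitor. In these 4 genes the lowest CPT library was above the highest no-inhibitor and ICRF193 libraries on the normalized scale. The choice and the ranking by CPT level favour this, so nothing is read from it.

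**Figure D2:**
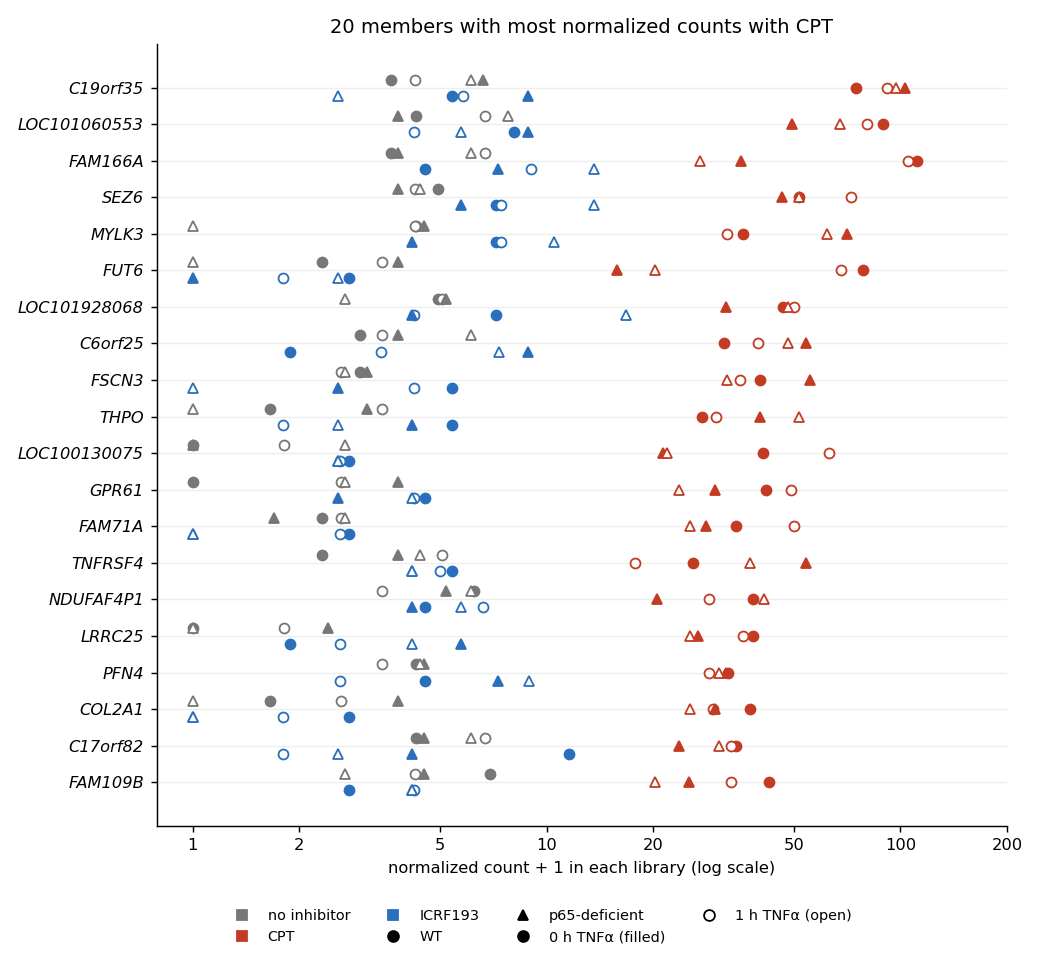
Normalized count plus 1 in each of the 12 libraries, on a log scale, for the 20 genes with most normalized counts with CPT. Colour gives the inhibitor, circles are WT and triangles p65-deficient, filled symbols are 0 h and open symbols 1 h TNFα. For all 20 genes the 4 CPT points lie to the right of the 8 others. The choice and the ranking by CPT level favour this separation, so nothing is read from it. FUT6 and FAM166A show the widest gap between the cell lines.

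The next genes by level were MYLK3, the myosin light chain kinase of heart muscle (14 reads without inhibitor, 209 with CPT), FUT6, a fucosyltransferase that builds Lewis-type sugar antigens (9 and 215), LOC101928068 (18 and 189), C6orf25, which encodes a platelet receptor (13 and 185), FSCN3, a testis fascin that bundles actin (9 and 182), and THPO, the hormone thrombopoietin (7 and 151). C6orf25 has copies on the alternative chromosome 6 haplotypes of the annotation, so reads that map to several copies may have been lost. The same holds for FUT6, which resembles FUT3 and FUT5, for the tubulin gene TUBA3D and for MTRNR2L3, which resembles mitochondrial ribosomal RNA. After them came LOC100130075 (2 and 171), the orphan receptor gene GPR61 (7 and 165), FAM71A, a testis gene (6 and 156), TNFRSF4, the T cell costimulatory receptor OX40 (13 and 142), the pseudogene NDUFAF4P1, and LRRC25, a gene of myeloid cells (3 and 140). PFN4, a testis profilin (15 and 133), COL2A1, the collagen of cartilage (7 and 134), C17orf82 and FAM109B (19 and 136) completed the first 20.

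DTX3, a ubiquitin ligase of the Deltex family, and TMEM235, a membrane protein gene, had no read in any of the 8 libraries without CPT. DTX3 had 22, 17, 26 and 12 reads in the CPT libraries and TMEM235 had 23, 24, 11 and 5. Against a floor of 3 reads over the 4 no-inhibitor libraries, DTX3 was at least 28.6-fold higher with CPT and TMEM235 at least 21.4-fold higher. These bounds cover counting error only.

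To show what the searched motifs look like in place, the start regions of the 4 highest genes that held one are given (RefSeq, GRCh38.p14, 250 bases before to 50 bases after the annotated start, each on the gene's own strand). Capitals mark matches to the TATA box TATAAA, the AP-1 element TGACTCA, the cAMP response element TGACGTCA, the E-box CACGTG, the CCAAT box or the GC box GGGCGG, or to the NF-κB, CArG (serum response factor) or p53 half-site consensus, on either strand. The matches were a GC box in C19orf35 and C6orf25, a CCAAT box in C19orf35 and LOC101060553, an NF-κB match in C19orf35, FUT6 and C6orf25. TATAAA stood in none of the 4. The 4 were picked for holding a match, so what they share is not a result. Their windows are chr19:2282126-2282425, chr13:111153528-111153827, chr19:5839653-5839952 (all minus strand) and chr6:31723123-31723422 (plus strand).
C19orf35: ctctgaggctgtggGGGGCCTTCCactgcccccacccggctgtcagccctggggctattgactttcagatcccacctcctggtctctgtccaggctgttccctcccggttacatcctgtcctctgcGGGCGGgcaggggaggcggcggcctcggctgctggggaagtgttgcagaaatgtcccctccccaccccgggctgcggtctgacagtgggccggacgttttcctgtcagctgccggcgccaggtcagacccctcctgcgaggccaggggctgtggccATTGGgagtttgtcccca
LOC101060553: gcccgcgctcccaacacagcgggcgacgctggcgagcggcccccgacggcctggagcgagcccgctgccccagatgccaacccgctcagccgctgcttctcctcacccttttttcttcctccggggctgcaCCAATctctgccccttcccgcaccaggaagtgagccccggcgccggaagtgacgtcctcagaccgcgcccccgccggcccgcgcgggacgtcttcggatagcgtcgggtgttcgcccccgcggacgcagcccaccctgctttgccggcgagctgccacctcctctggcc
FUT6: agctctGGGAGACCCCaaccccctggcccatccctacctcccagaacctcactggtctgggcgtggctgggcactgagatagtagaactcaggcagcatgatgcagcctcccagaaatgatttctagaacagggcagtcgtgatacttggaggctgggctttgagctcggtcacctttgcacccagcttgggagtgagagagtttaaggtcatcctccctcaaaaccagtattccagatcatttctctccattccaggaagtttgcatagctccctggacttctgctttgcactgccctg
C6orf25: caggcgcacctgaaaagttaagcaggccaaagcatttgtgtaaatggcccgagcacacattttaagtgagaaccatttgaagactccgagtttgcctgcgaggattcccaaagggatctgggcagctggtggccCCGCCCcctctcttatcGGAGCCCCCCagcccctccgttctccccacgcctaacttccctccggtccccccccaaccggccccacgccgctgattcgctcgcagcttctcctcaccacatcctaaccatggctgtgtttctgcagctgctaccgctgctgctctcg

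A start region was found for 74 of the 114 genes (60 by symbol, 10 by an older symbol, 4 by gene ID). TATAAA stood in 3 of the 74 (4.05%), against 17.2% of the start regions of the other near-silent genes and 11.95% of all 27305. GGGCGG, the GC box bound by SP1, stood in 36 (48.6%), against 30.2% and 44.6%. The NF-κB consensus stood in 13 (17.6%), against 9.60% and 10.8%, and TGACTCA, the AP-1 element, in 6 (8.11%), against 5.58% and 4.92%. CCAAT stood in 25 (33.8%, against 36.0% and 35.7%), CACGTG in 5 (6.76%, against 6.36% and 7.43%), the p53 half-site in 6 (8.11%, against 7.75% and 6.54%), the CArG box in 3 (4.05%, against 1.57% and 1.29%) and TGACGTCA in 0 (against 1.11% and 1.98%). The median GC content of the 74 was 61.7%, against 52.7% for the other near-silent genes and 58.3% for all. A match is a string of letters in this window and was not tested as a site.

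To ask whether genes chosen in this way gave the same change in libraries that had no part in the choice, the thresholds were halved and applied to 1 cell line, and the CPT contrast was tested in the other. In the WT libraries, at most 10 reads without inhibitor and at least 30 with CPT chose 143 genes, 92 of which are among the 114. In the p65-deficient libraries, all 143 had more normalized counts with CPT than without inhibitor. The median gene had 5 reads over the 2 no-inhibitor libraries there and 27 over the 2 CPT libraries. 137 of the 143 passed a filter on low counts that used only WT libraries, and 112 of these (81.8%) were higher with CPT at an adjusted p under 0.05 (edgeR quasi-likelihood test, Benjamini-Hochberg over all genes), against 22.1% of the 14224 genes tested. Of the 66 other genes with at most 10 no-inhibitor reads in WT that passed the same filter, 32 (48.5%) were called higher. Genes this low without inhibitor passed that filter mainly through the WT libraries with CPT or ICRF193. The 48.5% is therefore not the share of near-silent genes at large. Without a filter, 105 of the 143 were called higher, against 3068 of 19959 genes. The median log2 fold change of the 137 was 2.63, or 2.53 when the 13 genes with no held-out read without inhibitor were set to their lower bound, against 0.00 for all genes. None of the 137 was lower. With DESeq2's Wald test the count was 48, and without the 0 h pair of p65-deficient libraries, which leaves the shallow 1 h pair, it was also 48.

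In the mirrored test, the p65-deficient libraries chose 104 genes, 69 of them among the 114 (66.3% of the 104 and 60.5% of the 114), and 52 genes were chosen in both lines. In the WT libraries, 101 of the 104 had more normalized counts with CPT. 74 passed the filter, computed on the shallower p65-deficient libraries, and 68 of them (91.9%) were higher with CPT in the WT libraries (edgeR, adjusted p under 0.05), against 20.7% of the 13267 genes tested. No other near-silent gene passed this filter, so that share cannot be set beside it here. Without a filter, 88 of the 104 were called higher and 1 lower, against 2729 of 20305 genes called higher. Their median log2 fold change was 3.07, or 2.95 with 4 genes at their bound. The median gene of the 104 had 8 reads over the 2 WT libraries without inhibitor and 47.5 over the 2 with CPT. 37 of the 104 had more than 10 no-inhibitor reads in WT, so they were less silent there. Each condition has 1 library, and the 0 h and 1 h TNFα pairs stood in for replicates in these tests. Nothing in the labels says that the libraries came from separate experiments, so the p-values measure the spread between these libraries.

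**Figure D3:**
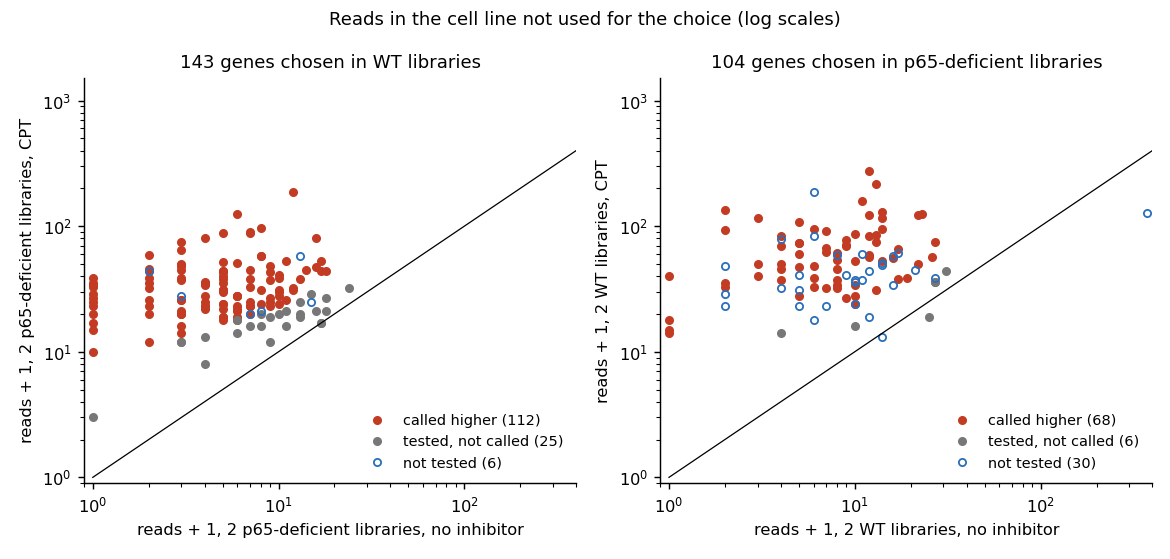
Reads plus 1 with CPT against reads plus 1 without inhibitor, each summed over the 2 libraries of the cell line that was not used to choose the genes, on log scales; the line marks equality. Left, 143 genes chosen in WT and plotted in p65-deficient libraries; right, 104 genes chosen in p65-deficient and plotted in WT libraries. Filled red points are genes called higher (112 and 68), grey points genes tested and not called (25 and 6), and open blue points genes that did not pass the filter (6 and 30).

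The CPT reads of the genes were also compared between the cell lines. The choice set no rule on this split, but it summed raw reads over libraries of unequal depth. The p65-deficient 1 h CPT library held 8154407 assigned reads, against 17115637 to 19759677 in the other CPT libraries. A gene high in WT cells thus met the CPT threshold more easily, so the split was not independent of the choice. NF-κB p65 is the main transactivating subunit that TNFα releases, so this comparison asks whether the CPT level depended on it, within the limit of 1 clone. The filter on low counts needed a minimum level in at least 4 libraries. Genes near-silent elsewhere met it through the CPT libraries, so a gene low with CPT in 1 line could fail it. The genes that passed were thus screened in part on the split that was tested. Of the 98 that passed, 47 had the higher estimate in p65-deficient and 51 in WT cells with CPT. 7 were called higher in p65-deficient and 5 in WT cells (edgeR, adjusted p under 0.05), that is 7.14% and 5.10% of the 98, against 8.22% and 10.2% of the 14221 genes tested. Without a filter, 8 of the 114 were called higher in p65-deficient and 10 in WT cells (7.02% and 8.77%), against 6.39% and 6.73% of 21096 genes. Thus the share called was below that of all genes with the filter and above it without, and nothing is read from it. Of the 12 calls, 3 passed without the 0 h pair and 7 without the 1 h pair. DESeq2's independent filtering left 3 of the 98 genes with an adjusted p, among which FAM166A passed. Without that filtering, an alternative chosen after seeing the data, 1 of the 12 passed, again FAM166A, while the fold changes stayed close to those of edgeR (FUT6 at -2.10, DESeq2 adjusted p = 0.081).

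FUT6 had 77.2 and 67.1 normalized counts in the WT CPT libraries (0 h and 1 h) and 14.8 and 19.2 in the p65-deficient CPT libraries. The log2 fold change was -2.16 ± 0.32 (SE, adjusted p = 6.5e-05). FAM166A had 110 and 104 in WT and 34.3 and 26.2 in p65-deficient cells, a log2 fold change of -1.80 ± 0.22 (edgeR adjusted p = 7.0e-06). TBX2, a repressor of the T-box family that acts in heart and limb development, had 37.4 and 23.3 in WT and 9.36 and 12.2 in p65-deficient cells (-1.62 ± 0.44, edgeR adjusted p = 0.012), but -0.91 without the 0 h pair (edgeR adjusted p = 0.47). These 3 genes were named for the largest called change, so it is no result that their WT and p65-deficient CPT libraries did not overlap. FUT6 and FAM166A passed without either pair. LOC100130075 (-1.23) and MYADML2 (-1.21) were the other genes called higher in WT, the first not past the threshold without the 1 h pair (-0.95, edgeR adjusted p = 0.12) and the second not without the 0 h pair (-0.75, edgeR adjusted p = 0.41).

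In the other direction, TMC2, a subunit of the mechanosensitive channel of hair cells, had 14.95 and 10.2 normalized counts in WT and 32.8 and 38.4 in p65-deficient CPT libraries, a log2 fold change of 1.45 ± 0.41 (SE, edgeR adjusted p = 0.015). BZRAP1, a scaffold at the presynaptic active zone, had 13.3 and 12.4 in WT and 49.9 and 17.5 in p65-deficient cells (1.39 ± 0.41, edgeR adjusted p = 0.021), but the estimate was 0.50 without the 0 h pair (edgeR adjusted p = 0.74). CHRND, the delta subunit of the muscle acetylcholine receptor, had 9.14 and 11.7 in WT and 24.2 and 27.9 in p65-deficient cells (1.31 ± 0.39, edgeR adjusted p = 0.022). The lines did not overlap for any of these 3 genes, which were also named for their change, so this too is no result. The p65-deficient 0 h and 1 h values of BZRAP1 lay far apart. MYOZ3 (1.30), ERVH48-1 (1.22), TNFRSF4 (1.09) and MYLK3 (0.97) were the other genes called higher in p65-deficient cells. None of the 7 passed without the 0 h pair, where MYOZ3 was at 0.85 (edgeR adjusted p = 0.56), and BZRAP1, MYOZ3 and TNFRSF4 passed without the 1 h pair.

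The filter set a minimum level in at least 4 libraries, which 16 genes did not reach. The following, from those 16, were chosen after their values were seen. CBS, the first enzyme of the transsulfuration pathway, had 8 and 5 reads in the WT CPT libraries and 40 and 14 in the p65-deficient ones. XIRP1, an actin-binding protein of heart and skeletal muscle, had 39 and 44 in WT and 6 and 5 in p65-deficient cells. ITGAL, the αL chain of the leukocyte integrin LFA-1, had 32 and 39 in WT and 8 and 3 in p65-deficient cells, and SP7, the osteoblast transcription factor osterix, had 35 and 29 against 6 and 5. For CBS the p65-deficient libraries were the high ones, and for the other 3 the WT libraries were, although the p65-deficient 1 h library was shallow.

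**Figure D4:**
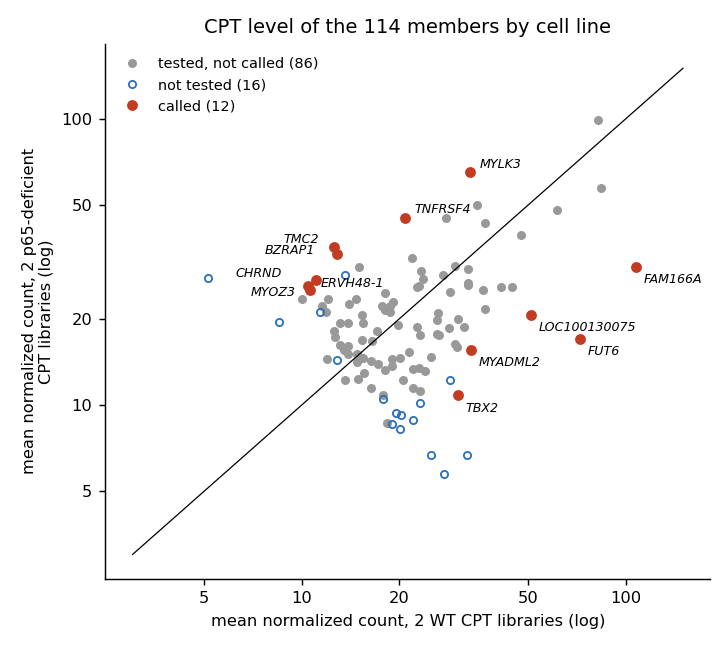
Mean normalized count of each of the 114 genes in the 2 p65-deficient CPT libraries against that in the 2 WT CPT libraries, on log scales; the line marks equality. Red points are the 12 genes called different between the lines, grey points the 86 tested and not called, and open blue points the 16 not tested. Points lie on both sides of the line, with FAM166A and FUT6 among those below it and MYLK3, TNFRSF4 and TMC2 among those above it.

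No gene of the 114 was called different between 1 h and 0 h of TNFα with CPT. TNFα was given for 1 h in addition to the 2 h with CPT, so time with TNFα and longer time in CPT cannot be told apart here. Of the 98 tested, 0 were higher and 0 lower at 1 h than at 0 h (edgeR adjusted p under 0.05), against 0.00703% and 0% of the 14221 genes, and the lowest adjusted p among them was 1.00. At an unadjusted p under 0.05 there were 2, TMEM95, which acts in sperm-egg fusion (log2 fold change 0.74 ± 0.34) and MYOZ3, a Z-disc protein of fast muscle (-0.98 ± 0.42), and DESeq2 gave 0 at either level. The estimates of the 98 ran from -0.98 to 0.75 with a median SE of 0.39, and no estimate in that range was called. Each estimate averages 1 WT pair and 1 p65-deficient pair, and the paper describes TNFα induction as almost abolished in p65-deficient cells. Since the test called 1 of the 14221 genes in all, the lack of calls among the 98 is not read as a lack of response.

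The genes were grouped by what they are known to do, by hand and after the list was known. In this grouping 47 of the 114 fell to 4 tissue groups and 39 were left as other or uncertain. 12 genes belong to immune and blood cells, with a median of 83.5 normalized counts summed over the CPT libraries and 6.19 over the no-inhibitor libraries. They include TLR9, the sensor of unmethylated DNA (4 reads without inhibitor and 94 with CPT), CSF3R, the receptor for the granulocyte growth factor G-CSF (2 and 103), CIITA, the switch for MHC class II genes (12 and 87), and IKZF3, the lymphocyte factor Aiolos (13 and 80). 8 genes belong to muscle (median 71.2 with CPT and 10.3 without inhibitor), among them LMOD1, a leiomodin of smooth muscle (13 and 66), and HSPB6, a small heat shock protein (13 and 73). 15 genes belong to nerve and sense organs (73.0 and 6.66), among them CPLX3, a complexin of retinal synapses (1 and 83), PDE6G, the inhibitory subunit of the rod phosphodiesterase (11 and 104), and SV2A, a synaptic vesicle protein (9 and 99). 12 belong to the germline and cilia (72.8 and 8.39), among them SPATA25 (9 and 90), DNAAF1, an assembly factor of ciliary dynein (12 and 82), and ASTL, the egg protease ovastacin (8 and 71). 15 encode secreted, matrix or metabolic proteins (79.7 and 6.55), among them VTN, vitronectin (17 and 107), CA9, a carbonic anhydrase (6 and 94), and HGFAC, the activator of hepatocyte growth factor (11 and 81). 3 transcription factors (TBX2, SP7 and ZFP3), 10 genes grouped as noncoding RNAs or pseudogenes and 39 genes of other or uncertain role made up the rest. The 10 do not hold every such gene. Among the 39, RefSeq now names C17orf82 as LINC02875 and LOC100130075 as SZRD1P1. The 39 also hold FAM166A, PFN4 and BZRAP1, described above by cilia, testis and synapse. The tissue groups thus do not hold every gene of their kind, and their counts and medians depend on the grouping. The medians of the groups with CPT ran from 65.8 to 83.5.

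Of 63 marker genes of germ cells, neurons, muscle, hepatocytes, blood and keratinocytes, 49 were near-silent and 0 were among the 114. Beside the 1.26% of all near-silent genes, a count of 0 in 49 is no result. The 49 together gave 21.005 to 34.0 normalized counts per library without inhibitor, 37.1 to 48.9 with ICRF193 and 63.1 to 97.8 with CPT, and the highest of them had 58 CPT reads. They were taken as low without inhibitor, which favours a low sum there. All 63 markers gave 1261 to 1414 per library without inhibitor, 1203 to 1332 with ICRF193 and 1389 to 1435 with CPT. By symbol, 1 of 389 near-silent olfactory receptor genes (the pseudogene OR7E47P), 0 of 141 keratin and keratin-associated genes, 0 of 80 potassium and sodium channel genes, 0 of 44 cytochrome P450 genes, 0 of 16 taste receptor genes and 0 of 14 claudin genes were among the 114. Of the symbol families searched, those with members were the fucosyltransferases (1 of 4 near-silent genes), GPR receptors (2 of 39, GPR61 and GPR62), solute carriers (1 of 135, the zinc transporter SLC39A2), LINC transcripts (5 of 738), LOC entries (9 of 1196) and open reading frames named by chromosome (4 of 233). These shares are beside 1.26% for all near-silent genes and carry no test.

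The position of the genes, which the choice did not use, is given as a description. From the hg19 exon coordinates in the files, a neighbour was called expressed at a mean of 50 or more normalized counts without inhibitor. Upstream and converging neighbours were the nearest such gene only, so an expressed gene behind a silent one was not counted. 27 of the 114 (23.7%) had an expressed gene on the same strand that ended within 10 kb upstream of their start, against 3.87% of the other near-silent genes and 7.12% of those with a CPT read. 44 (38.6%) had an expressed gene on the other strand that ended within 10 kb of their own end, so that the pair converges, against 5.21% and 9.98%. 63 of the 114 had at least 1 of these arrangements, at a median distance of 2740 bp. 14 (12.3%, against 3.69% and 5.55%) overlapped an expressed gene on the other strand, 1 overlapped one on the same strand, and 13 (11.4%, against 1.81% and 3.36%) began within 1 kb of the start of an expressed gene on the other strand. In all, 81 of the 114 (71.1%) had 1 or more of these neighbours, against 14.4% of the other near-silent genes, 24.5% of those with a CPT read and 33.9% of all 22449 genes with a retained symbol.

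Seen from the near-silent genes, the share that met the CPT threshold was lower farther from the end of an adjacent expressed gene that runs toward them. It was 10.3% of 117 genes at 1 kb or less, 12.2% of 90 at 1 to 2 kb, 9.75% of 277 at 2 to 5 kb, 3.71% of 350 at 5 to 10 kb, 1.57% of 1337 at 10 to 50 kb and 0.557% of 2875 beyond 50 kb. Of the 4029 near-silent genes with no expressed gene as their adjacent neighbour in these arrangements, 0.347% met it. Thus the first 3 distance classes were close to each other and the share was lower beyond 5 kb. Most near genes still did not meet the threshold: 1291 of the 1372 near-silent genes with an expressed neighbour are not among the 114.

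**Figure D5:**
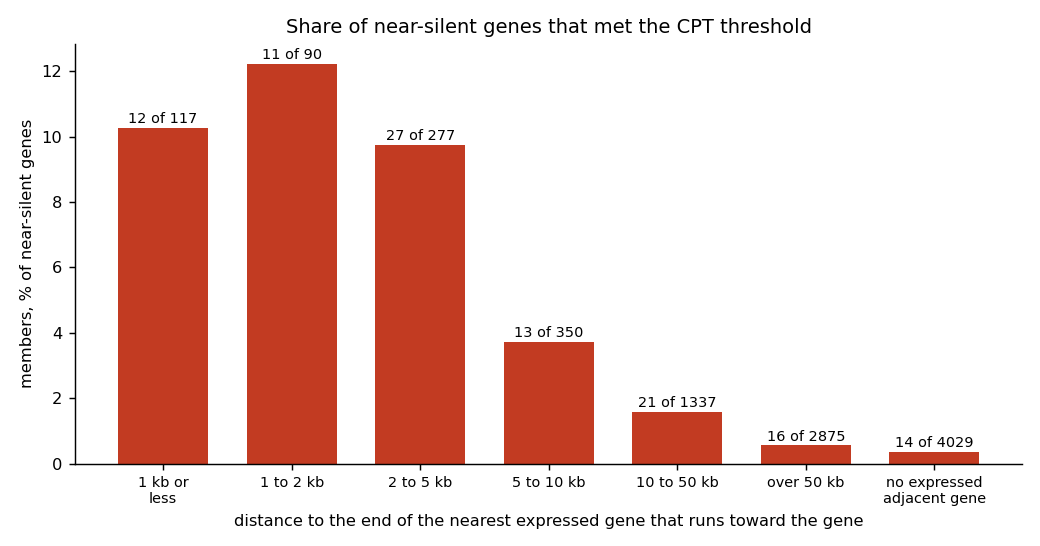
Percent of near-silent genes (at most 20 reads without inhibitor) that met the CPT threshold, by the distance to the end of an adjacent expressed gene that runs toward them. Adjacent means the nearest gene upstream on the same strand or downstream on the other strand. An expressed gene behind a silent one is not counted, and the last bar holds genes with no expressed adjacent gene. The numbers above the bars are genes that met it of all near-silent genes in the class. The bars are near 10% up to 5 kb and under 1% beyond 50 kb.

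45 of the 114 had any same-strand gene, expressed or not, that ended within 10 kb upstream. The 6 of them with most counts were C19orf35, 7593 bp after LINGO3, which is itself one of the 114, FAM166A, 2427 bp after C9orf173-AS1 (18 reads without inhibitor and 46 with CPT), FUT6, 3157 bp after its paralog FUT3 (82 and 72), C6orf25, 5540 bp after LY6G6D (1 and 11), FSCN3 and FAM71A. FSCN3 starts 1930 bp after the end of ARF5, a small GTPase gene at 1986 normalized counts without inhibitor and 2419 with CPT. FAM71A starts 3670 bp after ATF3, a stress-response transcription factor gene (564 and 509). Thus the upstream gene was silent or low in 4 of the 6 and expressed in 2. Further down the list, TNFRSF4 starts 2740 bp after SDF4 (2513 and 2896), PNLDC1 1820 bp after the mitochondrial ribosomal protein gene MRPL18 (1965 and 2120) and C17orf82 2285 bp after TBX2, another of the 114. The 2 genes with no read outside CPT also belong here: DTX3 starts 1194 bp after PIP4K2C (777 and 884) and TMEM235 starts 5675 bp after BIRC5, the gene for survivin (4966 and 5297).

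In the converging arrangement, C19orf35 ends 1144 bp from the end of OAZ1, the ornithine decarboxylase antizyme gene (9986 normalized counts without inhibitor and 11819 with CPT), LRRC25 ends 1968 bp from GDF15 (2329 and 2552), MYLK3 ends 3888 bp from ORC6 (1027 and 727) and FUT6 ends 2302 bp from NRTN (79.7 and 92.0). FAM166A overlaps TUBB4B, a tubulin gene on the other strand (10354 and 13535), and LOC101060553 overlaps ARHGEF7 on the other strand (1057 and 626). The kit keeps strand, but the file headers show a count without the strand option, so reads of such a gene and of a partner on the other strand that runs past its end cannot be told apart in these files. RefSeq now gives 4 of the 114 an antisense name (C10orf25 as ZNF22-AS1, LOC101928068 as EFCAB2-AS1, LOC102723824 as EML4-AS1 and LOC115110 as TNFRSF14-AS1).

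63 genes had an expressed neighbour running toward them. In the nearest such neighbour, the median log2 ratio of CPT to no inhibitor was 0.16, with NXT1 at -0.78 and SNHG9 at 1.08. 42 of the 63 neighbours were higher with CPT, 1 of them more than 2-fold, and none was below 0.5-fold. No share over all expressed genes stands beside the 42, so nothing is read from it. Per length, the 63 genes stood at a median of 2.93% of its neighbour's RPKM with CPT, from 0.276% to 41.4%. Across the 56 pairs with both genes tested, the cell line log2 fold change of a gene and of its neighbour had a Spearman rho of 0.07 and a Pearson r of 0.15, as a description over genes that share the same 12 libraries. Whether the reads of any of these genes came from the neighbour's transcription was not tested, since the files hold gene counts and no coverage between genes.

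33 of the 114 genes had none of these expressed neighbours, which does not exclude an expressed gene behind a silent one. Their median CPT level was 74.4 normalized counts summed over the 4 libraries, against 73.5 for the other 81, and their median no-inhibitor level was 5.81 against 10.0. SEZ6, GPR61, LOC100130075, PFN4, C17orf82, ENDOU and VMO1 led them, and TMC2, BZRAP1, CHRND, MYOZ3, XIRP1, CBS and SP7, all named above for their difference between the lines, are among them. LOC100130075 lies on the other strand 2678 bp before the start of MDM2, the ubiquitin ligase of p53, and PANDAR, a noncoding RNA, 1334 bp before the start of CDKN1A, the cell cycle inhibitor p21; both were looked up after the list was known. PANDAR had 5, 5, 0 and 2 reads without inhibitor and 39, 34, 9 and 10 with CPT, in the order given above for C19orf35. MDM2 was at a mean of 3892 normalized counts without inhibitor (3499 to 4094) and 2623 with CPT (2340 to 2965), and CDKN1A at 2437 (2123 to 2723) and 2554 (2338 to 2759). 1 of the 114 (0.877%) lay within 10 kb of any of the 120 other genes that were at least 2-fold higher with CPT in all 4 pairs, against 14 of the other near-silent genes (0.156%), and the median distance to such a gene was 4858 kb against 8280 kb. The 1 gene was CHRND beside CHRNG, the gamma subunit gene of the same receptor (24.5 and 63.5 normalized counts).

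The 114 genes were compact. Their median span was 7107 bp, against 13892 bp for the other near-silent genes and 15607 bp for those with a CPT read, while the exonic length (median 2260 against 1932 and 2159 bases) and the number of exons (5 in all 3 sets) were close. 12 of the 114 had 1 exon (10.5%, against 13.5% of the other near-silent genes). They lay on 22 chromosomes, with most on chromosome 17 (16 genes, 3.56% of its near-silent genes), chromosome 1 (15, 1.66%), chromosome 19 (11, 2.49%) and chromosome 16 (8, 2.70%). Chromosomes 4 (2 genes, 0.503%) and 8 (2 genes, 0.562%) had the lowest shares among those with any. Of pairs of the 114 that follow each other along a chromosome, 5 were within 100 kb: TBX2 and C17orf82 (2285 bp apart), C19orf35 and LINGO3 (7593 bp), JSRP1 and C19orf35 (18209 bp), ZFP3 and USP6 (20064 bp), and AMIGO1 and GPR61 (30158 bp). JSRP1 and LINGO3, on either side of C19orf35, were also within 100 kb of each other.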

How the data were processed

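Total RNA of 12 HCT116 libraries, 1 per condition, was sequenced after a strand-keeping kit (TruSeq Stranded). The submitters' processing notes name Trimmomatic, STAR, featureCounts and deepTools and the build hg19. The authors deposited raw read counts per gene symbol, made per the file headers with featureCounts 1.5.0 over the exons of a UCSC hg19 annotation, without the strand option, with reads that overlap exons of several genes or map to several places not counted. 26364 symbols are listed in each file.

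The 114 genes and all gene lists were chosen with earlier results of these data known. Counts at these levels carry a large counting error: the median gene had 82.5 reads over the 4 CPT libraries, and a gene at 0 reads could still hold 3. Size factors came from DESeq2 1.42.0 over all 12 libraries and gave the normalized counts. The tests used edgeR 4.0.16 (TMM, quasi-likelihood) in R 4.3.3, with Benjamini-Hochberg adjustment over all genes that passed edgeR's expression filter. For the CPT contrast in the cell line not used for the choice, the model had inhibitor and TNFα time over that line's 6 libraries, and the filter used the other line. The cell line and TNFα contrasts with CPT came from 1 model of all 12 libraries with inhibitor by cell line means and TNFα time within inhibitor. TNFα time (or the line) was the block, since the labels number no replicates. The scripts were tested on simulated data with 200 changed genes for each contrast.

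Named genes were the 20 with most normalized counts with CPT, those at the thresholds, the 3 with the largest called change each way between lines, the 3 with most ICRF193 reads and up to 6 with a same-strand gene within 10 kb upstream; others are said to be chosen later or illustrate a group. Neighbours were read from the deposited exon coordinates, leaving out small RNA genes. Start regions came from RefSeq (GRCh38.p14) and share no coordinates with the hg19 values. The alternatives tried were other scalings, thresholds, filters, DESeq2's Wald test, no block, and leaving out each pair.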

Additional observations from a re-analysis of the deposited data

How the results depend on the processing

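The rule gave 110 genes with counts scaled by DESeq2 size factors (91 of them among the 114) and 109 with TMM scaling (90), 57 with thresholds of 10 and 60, and 21 with 20 and 120. Leaving out genes with a same-strand gene within 10 kb upstream or an overlapping gene left 54, and leaving out those with any expressed neighbour, which was chosen after seeing the data, left 33. Leaving out each pair in turn, with thresholds of 15 and 45, gave 90 to 135 genes. The stricter thresholds and the left-out genes lower the number by construction; the cause of the other differences was not tested. For the genes chosen in WT libraries, 112 calls became 48 with DESeq2's Wald test and 48 to 91 without 1 pair. For those chosen in p65-deficient libraries, 68 calls became 58 to 59 without 1 pair and 50 with DESeq2. For the cell line contrast, 7 genes higher in p65-deficient cells became 0 to 3 without 1 pair, and 5 higher in WT became 10 with no expression filter and 3 to 6 without 1 pair; the cause was not tested. DESeq2's independent filtering gave an adjusted p to 3 of the 98 genes, so its counts are not set beside these. Without that filtering, chosen after seeing the data, DESeq2 called 0 higher in p65-deficient and 1 higher in WT cells, and 48 and 50 of the genes chosen in WT and in p65-deficient libraries. None of the 12 called genes changed direction in any of these fits. With TNFα, 0 members were called in every setting. Without the block for the pair the counts were 114, 67, 9 and 5, so it moved no count by over 1.5 times. Within a window of 5 kb, chosen after seeing the data, 43.9% of the 114 had an adjacent expressed gene running toward them, against 55.3% within 10 kb. The shares of the other near-silent genes were 4.84% and 8.60%. Depth limits single genes most: the p65-deficient CPT 1 h library held 8154407 assigned reads, and the median member had 11 reads there.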
